A study of Mus musculus with 6 samples.

Results

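The genes described here encode 7 enzymes and helper proteins that turn arachidonic acid into eicosanoids: Alox12, Ptgs1, Tbxas1, Alox5, Alox5ap, Ltc4s and Hpgds. The rule used their names and no measured value, and each matched a single Ensembl gene among the 24376 in the deposited tables. They were followed in 6 RNA-seq libraries of cultured mouse blood progenitors. The cells came from the liver of C57BL/6 embryos at E14.5, were infected with retrovirus as soon as they had been isolated, and were kept for 3 days in StemPro-34 medium. In 3 libraries the virus carried a control shRNA (control), and in the other 3 an shRNA against Samd14 (shSamd14); the labels give no hairpin sequence and no further allele or agent. Only cells lacking surface CD71 and Ter119, which appear as red cell precursors mature, went into the libraries. Separate animals or cultures are not stated for the replicates, so the p-values below cover only how far these libraries lie apart, which may be a technical spread.

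Eicosanoids are short-lived lipid signals made where phospholipase releases arachidonic acid from membranes. The cyclooxygenase encoded by Ptgs1 makes the prostaglandin precursor that thromboxane synthase, encoded by Tbxas1, turns into thromboxane in platelets, and Alox12 encodes the lipoxygenase of platelets; these 3 genes are called platelet-type here. Alox5 encodes the lipoxygenase that starts leukotriene synthesis, Alox5ap the membrane protein that presents arachidonic acid to it, Ltc4s the synthase of the cysteinyl leukotrienes, and Hpgds the hematopoietic prostaglandin D synthase; these 4 are called mast or myeloid-type. The names describe where the enzymes are best known: Tbxas1 is also expressed in macrophages and Hpgds in megakaryocytes, Ptgs1 is widely expressed, and bulk RNA does not assign a transcript to a cell.

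Tbxas1 and Alox12 rose in shSamd14, Ptgs1 did not pass the test, and none of the 4 mast or myeloid-type genes passed. Transcripts of Tbxas1 went from 3.82 ± 0.546 to 6.82 ± 0.357 CPM (SD, n = 3 each; CPM are counts per 1000000 counts of the library), 1.79-fold, and those of Alox12 from 6.18 ± 0.633 to 9.09 ± 0.193 CPM, 1.47-fold. The 2 genes that carry most of the transcripts per length, Alox5ap and Alox5, had ratios of 0.976 and 1.16. A total of 2 of the 7 genes passed the quasi-likelihood test of edgeR, at a Benjamini-Hochberg adjusted p under 0.05 over 12670 genes. Leaving out 1 library reduced this count to 1 in 5 of 6 fits, in which Alox12 missed the threshold (adjusted p 0.0563 to 0.102) and Tbxas1 passed. The same rule called 2.58% of all genes tested, 1.32% as higher and 1.26% as lower in shSamd14. All 7 genes were tested, and the lowest count of any of them in any library was 12.

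The 6 libraries held 20584169 to 26462797 estimated counts, and 3 counts correspond to 0.111 to 0.145 CPM. Samd14, the targeted gene, had 82.0 to 83.8 CPM in the control and 38.8 to 41.9 CPM in the shSamd14 libraries. Tfrc, which encodes CD71, was present at 934 ± 57.3 CPM in control and 824 ± 48.0 CPM in shSamd14 (SD, n = 3 each) although the cells were sorted as negative for the protein.

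Sequences are shown first for short words found in some of the 7 genes, whose part in the changes was not tested. Words of 7 bases in the 3′ untranslated region (UTR) were already known to differ between the genes that rose and those that fell in these data, and they are used here as a description. Searched in 1 UTR per gene, the longest in the annotation, CTGATTA or TGATTAA occurred in 59.9% of 167 genes that rose and in 14.3% of 11546 that did not pass, and CAAGTGT or AAGTGTA occurred in 58.0% of 157 searched genes that fell and in 22.2% of those that did not pass. Of the 7 genes, Alox12 and Hpgds held such words, and Ptgs1, Tbxas1, Alox5, Alox5ap and Ltc4s held none. The sites are printed because they are the only such matches in the 7 genes, 5′ to 3′ in the sense of the transcript, with the word in capitals, in mm10 (GENCODE M21 transcripts).
Alox12, chr11:70249056-70249084, minus strand: ggtaatacagtCTGATTAatagtatcttg
Hpgds, chr6:65119473-65119501, minus strand: ggtatacaccaAAGTGTAtaagctacttc
Hpgds, chr6:65117934-65117962, minus strand: atttgctgacaAAGTGTAatagatacaca

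The Alox12 site, in which CTGATTA is followed by an A and so also spells TGATTAA, starts at base 962 of the 1072-base 3′ UTR of the transcript ENSMUST00000108574. That transcript has 8 exons. The other Alox12 transcript in the deposited tables, ENSMUST00000000329, has 14 exons and a 3′ UTR of 928 bases that holds none of the 4 words. The tables give a length per gene that is weighted by the share of each transcript, and for Alox12 it was 2913, 2930 and 2956 bases in the control and 2968, 2920 and 2893 bases in the shSamd14 libraries. If the authors' transcripts had the GENCODE M21 lengths of 3001 and 2314 bases, the transcript with the word made up 12.9%, 10.4% and 6.53% of Alox12 transcripts in control and 4.79%, 11.9% and 15.7% in shSamd14. On that assumption, the shares overlap between the groups, and most of the Alox12 signal was assigned to the transcript without the word. The deposited lengths equal those of GENCODE M21 for Ptgs1 and Hpgds but not for Alox5ap (852 against 1251 bases), so the M21 lengths need not hold for Alox12. Whether the word plays a part in the rise of Alox12 was not tested.

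The promoter windows of the 2 genes that rose, and of Ptgs1 beside them, are shown because these are the platelet-type genes and they differ in their change. RefSeq windows (GRCm38.p6) of 250 bases before to 50 after the start were found for 6 of the 7 genes, all but Alox5ap. They were searched on both strands for 3 motifs of megakaryocytic and myeloid factors: AGATAA, of the GATA family, GGAAGT, of the ETS family, and TGTGGT, of the RUNX family, which 11.2%, 23.8% and 16.8% of all 32851 windows hold. The windows of Alox12, Tbxas1 and Alox5 held none of these letters, that of Ptgs1 held GGAAGT at 22 bases before the start, and those of Ltc4s and Hpgds held GGAAGT and TGTGGT (for Ltc4s on the opposite strand). Capitals mark GGAAGT.
Alox12, chr11:70255321-70255620, minus strand: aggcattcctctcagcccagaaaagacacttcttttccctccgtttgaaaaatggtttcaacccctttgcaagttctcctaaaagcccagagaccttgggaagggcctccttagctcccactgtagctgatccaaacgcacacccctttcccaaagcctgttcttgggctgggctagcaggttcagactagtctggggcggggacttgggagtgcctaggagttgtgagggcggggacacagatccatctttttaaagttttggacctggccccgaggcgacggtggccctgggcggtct
Tbxas1, chr6:38918736-38919035, plus strand: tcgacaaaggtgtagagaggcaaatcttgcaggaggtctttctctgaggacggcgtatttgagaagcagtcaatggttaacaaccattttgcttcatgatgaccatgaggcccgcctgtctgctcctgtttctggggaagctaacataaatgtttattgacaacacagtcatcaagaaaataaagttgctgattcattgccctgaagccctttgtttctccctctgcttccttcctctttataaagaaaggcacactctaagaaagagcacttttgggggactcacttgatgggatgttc
Ptgs1, chr2:36230176-36230475, plus strand: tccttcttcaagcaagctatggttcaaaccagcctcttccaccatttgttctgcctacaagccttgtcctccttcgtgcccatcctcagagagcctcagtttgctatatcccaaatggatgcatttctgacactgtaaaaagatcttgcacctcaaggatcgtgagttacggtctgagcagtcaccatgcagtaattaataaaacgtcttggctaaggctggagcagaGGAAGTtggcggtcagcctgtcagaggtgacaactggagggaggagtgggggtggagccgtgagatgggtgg

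The Tbxas1 window surrounds the start of its transcript ENSMUST00000003017 (first base 38918980), the longest of the 3 in the deposited tables at 1990 bases. The gene as annotated begins at 38875404 with the start of ENSMUST00000162521, a transcript of 1427 bases. Tbxas1 transcripts were assigned a weighted length of 1990, 1990 and 1758 bases in the control and of 1984, 1990 and 1985 bases in the shSamd14 libraries, so that in 5 of the 6 libraries nearly all of the signal fell on the transcript whose promoter is printed.

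Transcript levels of the 7 genes spanned a wide range. They are compared in TPM, transcripts per 1000000 transcripts, a unit that takes the length of a gene into account, over all 6 libraries. Alox5ap was highest with a mean of 200.8 TPM (172.6 to 238.0), followed by Alox5 with 96.3 TPM (78.0 to 119.0) and Ptgs1 with 16.4 TPM (13.1 to 20.5). The ranges of these 3 genes did not overlap with each other or with any gene below. Tbxas1 (mean 4.60, 2.75 to 6.35 TPM) and Alox12 (mean 4.37, 3.02 to 5.4 TPM) overlapped, and Tbxas1 was above Alox12 in 4 of 6 libraries, so their order was not settled. Ltc4s had a mean of 2.39 TPM (1.39 to 3.54), below Alox12 in each of the 6 libraries although the ranges overlapped, and Hpgds had the lowest level with 0.46 TPM (0.28 to 0.64). The arachidonate-presenting protein and the lipoxygenase of the leukotriene branch were thus the most abundant of these transcripts, while the synthase that completes the cysteinyl leukotrienes was near the bottom of the order.

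**Figure D1:**
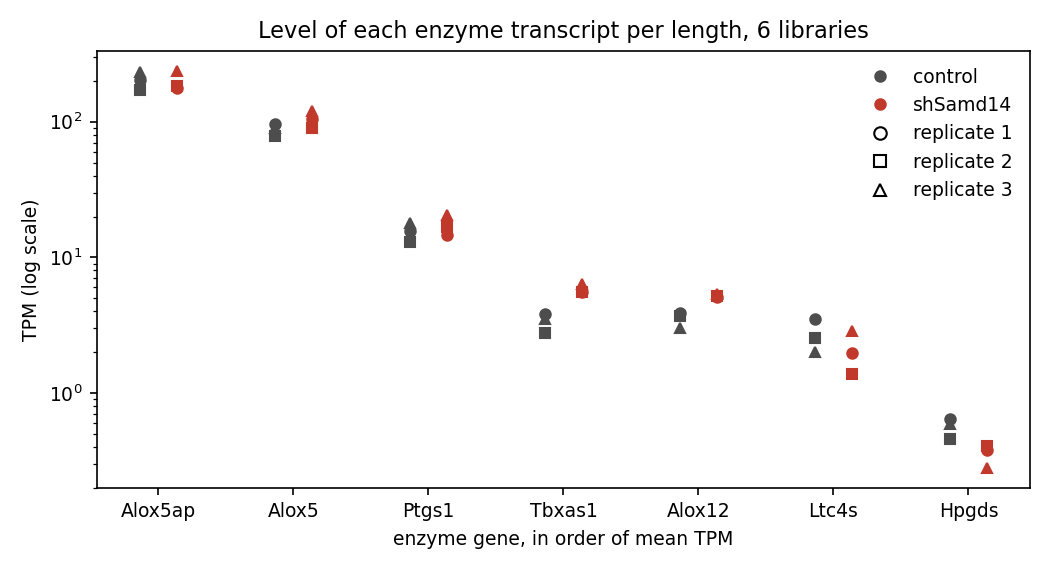
TPM of each enzyme gene (y axis, log scale) in each of the 3 control and 3 shSamd14 libraries, with genes in order of their mean over all libraries (x axis) and the marker shape giving the replicate number. Alox5ap lies near 200.8 TPM and Hpgds near 0.46 TPM; Tbxas1 and Alox12 are the genes whose control and shSamd14 points stand apart upward, and Hpgds downward.

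Among the platelet-type genes, Tbxas1 (ENSMUSG00000029925; chromosome 6, 38875404 to 39084585, plus strand) had 4.40, 3.31 and 3.75 CPM in the control libraries and 6.71, 6.54 and 7.22 CPM in the shSamd14 libraries. All 3 shSamd14 libraries lay above all 3 control libraries. On the log2 scale Tbxas1 rose by 0.84 with an SE of 0.15, for which edgeR gave an adjusted p of 0.00711. Leaving out any 1 of the 6 libraries kept it past the threshold, at log2 fold changes of 0.75 to 0.95 and adjusted p of 0.0129 to 0.0362. These values rest on 76 to 195 counts per library. Tbxas1 overlaps Hipk2, a kinase gene on the opposite strand, but the annotated exons of the 2 genes share 0 bases, and the value for Hipk2 was 0.11 with an SE of 0.07 (log2; edgeR adjusted p 0.536).

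Alox12 (ENSMUSG00000000320; chromosome 11, 70241457 to 70255353, minus strand) had 6.52, 6.58 and 5.45 CPM in the control libraries and 9.30, 8.93 and 9.04 CPM in the shSamd14 libraries. Here, too, the groups did not overlap, and the shSamd14 libraries lay close together. Alox12 rose by 0.56 on the log2 scale with an SE of 0.12, for which edgeR gave an adjusted p of 0.0249. With 1 library left out the log2 fold change stayed between 0.47 and 0.61, but the threshold was missed in 5 of 6 fits (adjusted p 0.0563 to 0.102), all but the fit without control replicate 2. It was also missed by limma on log2(TPM + 1), with an adjusted p of 0.0722. The direction of Alox12 did not depend on a single library, whereas its call did.

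Ptgs1 (ENSMUSG00000047250; chromosome 2, 36230426 to 36252272, plus strand), whose product works just upstream of thromboxane synthase, had 26.1, 22.9 and 31.6 CPM in the control and 25.8, 28.3 and 33.9 CPM in the shSamd14 libraries. The groups overlapped, and replicate 3 was the highest library in each. The log2 fold change was 0.13 (SE 0.13, adjusted p = 0.707 in the edgeR test). Ptgs1 was the most abundant platelet-type transcript: the ratio of its TPM to that of Tbxas1 was 4.08 to 5.12 in the control and 2.64 to 3.22 in the shSamd14 libraries.

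**Figure D2:**
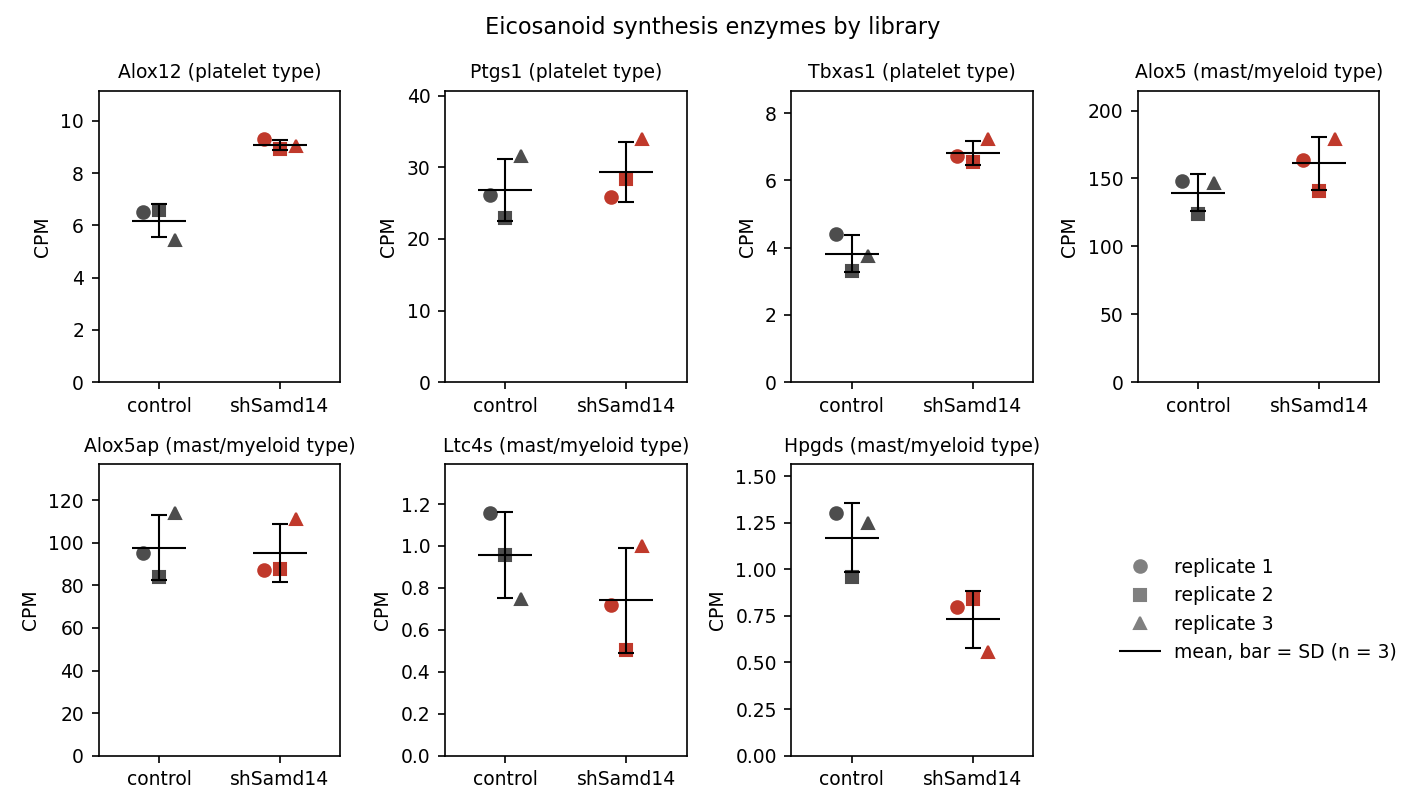
CPM of the 7 enzyme genes (y axes, each from 0) in the 3 control and 3 shSamd14 libraries; marker shapes give the replicate number, the wide bars the group mean and the whiskers the SD (n = 3). The groups stand apart for Alox12, Tbxas1 and Hpgds, at group means of 6.18 and 9.09, 3.82 and 6.82, and 1.17 and 0.731 CPM, and overlap for Ptgs1, Alox5, Alox5ap and Ltc4s.

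Of the leukotriene branch, Alox5 (ENSMUSG00000025701; chromosome 6, 116410077 to 116461178, minus strand) had 148.0, 123.7 and 146.6 CPM in the control and 163.6, 140.6 and 179.0 CPM in the shSamd14 libraries. The lowest shSamd14 library lay within the control range. Its log2 fold change of 0.21 had an SE of 0.095, and edgeR gave p values of 0.0514 before and 0.337 after adjustment. Its SE was the smallest of the 7 genes.

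Alox5ap (ENSMUSG00000060063; chromosome 5, 149264767 to 149288153, plus strand), the partner of Alox5, had 95.3, 83.8 and 114.2 CPM in the control and 87.3, 87.7 and 111.2 CPM in the shSamd14 libraries. The groups covered nearly the same range, with replicate 3 the highest in each. The log2 fold change was -0.04 (SE 0.14, adjusted p = 0.939 in the edgeR test), and its sign turned without control replicate 3 and without replicate 1 or 2 of shSamd14, with values from -0.16 to 0.085 over the 6 such fits. The ratio of Alox5ap to Alox5 TPM was 2.11, 2.21 and 2.57 in the control and 1.69, 2.03 and 2.00 in the shSamd14 libraries.

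Ltc4s and Hpgds were measured on few reads. Ltc4s (ENSMUSG00000020377; chromosome 11, 50236461 to 50238616, minus strand) had 24, 22 and 18 counts in the control libraries, or 1.16, 0.958 and 0.749 CPM, and 18, 12 and 27 counts in the shSamd14 libraries, or 0.719, 0.503 and 1.0 CPM. The groups overlapped, and the log2 fold change of -0.34 had an SE of 0.31 (adjusted p = 0.654 in the edgeR test). Ltc4s shares 268 exonic bases with Gm26542, an antisense gene at 0.252 to 0.839 CPM, and the use of strand in counting is not given in the sources used here, so its reads cannot be told apart from those of Gm26542 there.

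Hpgds (ENSMUSG00000029919; chromosome 6, 65117293 to 65144908, minus strand), the gene with a pair of AAGTGTA sites, had 1.30, 0.958 and 1.249 CPM in the control and 0.799, 0.838 and 0.556 CPM in the shSamd14 libraries. All 3 shSamd14 libraries lay below the control libraries. Its log2 fold change of -0.68 had an SE of 0.27, and edgeR gave p values of 0.0248 before and 0.241 after adjustment. These values rest on 15.1 to 30.0 estimated counts per library.

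**Figure D3:**
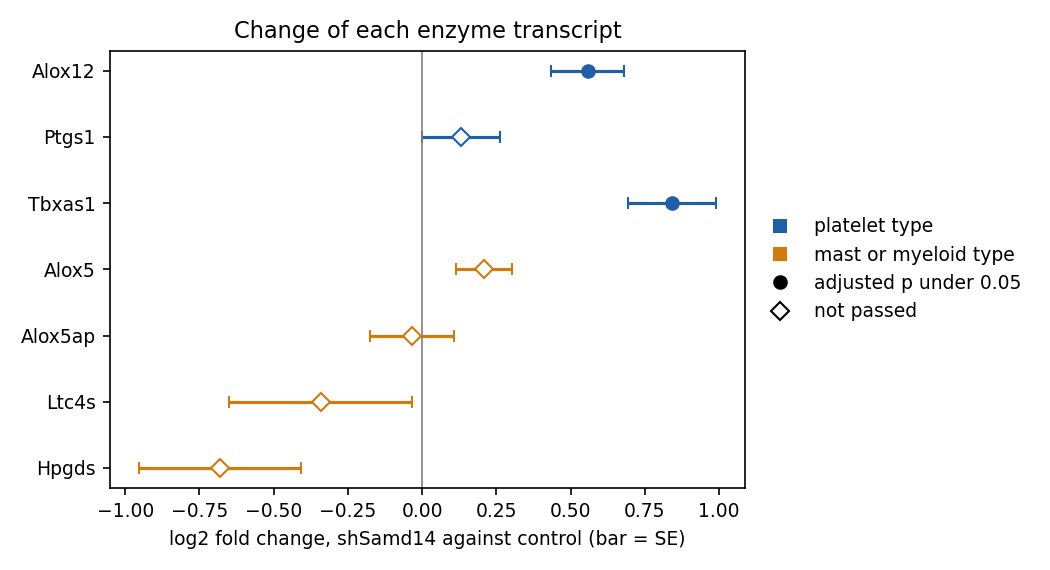
Log2 fold change of shSamd14 against control (x axis) with its SE for each of the 7 genes (y axis), coloured by type; filled circles mark an adjusted p under 0.05. Tbxas1 (0.84) and Alox12 (0.56) lie to the right, Hpgds (-0.68) has the lowest value with a wide SE, and Alox5ap (-0.04) lies near 0.

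Set side by side, the 3 platelet-type genes had log2 fold changes of 0.56, 0.13 and 0.84 and the 4 mast or myeloid-type genes values of 0.21, -0.04, -0.34 and -0.68. All 3 platelet-type values were positive, and 1 of the 4 mast or myeloid-type values was; those of Ptgs1 and Alox5 lay within their SEs of each other. Of the mast or myeloid-type genes, 0 of 4 passed in edgeR, DESeq2 and limma-voom. In each tool 1 of 4 had an unadjusted p under 0.05, against 1900 of the 12670 genes tested in edgeR, or 15%. That gene was Hpgds in edgeR and limma-voom (unadjusted p 0.0248 and 0.025). In DESeq2 it was Alox5 (unadjusted p 0.0249), and Hpgds had 0.118 there. DESeq2 gave no adjusted p for Ltc4s and Hpgds. Of the 7 genes, 3 had groups that did not overlap, against 20.7% of all genes tested (10.5% with shSamd14 above and 10.2% with shSamd14 below). Summed per library, platelet-type genes held 23.4, 19.5 and 24.6 TPM in the control and 25.3, 27.4 and 32.2 TPM in the shSamd14 libraries, and mast or myeloid-type genes 304.6, 253.6 and 324.3 against 282.5, 274.9 and 360.1 TPM. As a share of the 7 genes' TPM, the platelet type made up 7.14%, 7.13% and 7.04% in control and 8.22%, 9.06% and 8.21% in shSamd14. The shares did not overlap between the groups; Alox5ap and Alox5 together held 90.4% to 92.2% of the TPM in all 6 libraries. This is a description of these genes and carries no test.

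Levels of bulk RNA do not tell whether there were fewer cells of a type or less RNA in each cell, so the markers of the cell types known for these enzymes are given beside them. Of 20 megakaryocyte and platelet markers, 7 rose and 0 fell in the edgeR test, where 1.32% of all genes tested rose. In edgeR, 16 of the 20 had an unadjusted p under 0.05, against 15% of all genes tested. All 20 had a positive log2 fold change, against 6543 of the 12670 genes tested. The median was 0.37, against 0.006 for all genes tested. Gp6, 1 of the 20, had 7.94, 11 and 3.6 counts in control and 24, 15 and 15 counts in shSamd14. Below the minimum count of 10 in control replicates 1 and 3, Gp6 entered the test through the group in which it was high. The summed level of the 20 markers was 710 to 863 CPM in control and 916 to 1011 CPM in shSamd14, and none was at 0. The most abundant, Thbs1, Itga2b and Itgb3, did not pass (log2 fold changes 0.27, 0.24 and 0.25), while Pf4, which encodes a chemokine of platelet granules, rose from 49.2 ± 3.995 to 66.1 ± 6.204 CPM (SD, n = 3 each); Pf4 missed the threshold without control replicate 1 or shSamd14 replicate 2 (adjusted p up to 0.0907). The Alox12 and Tbxas1 log2 fold changes of 0.56 and 0.84 were above the median of this list, and that of Ptgs1 (0.13) was below it. None of the 19 markers with a searched 3′ UTR held CTGATTA or TGATTAA, which 14.9% of all searched genes held. Without shSamd14 replicate 2, 0 of the 20 markers passed in edgeR (13 at an unadjusted p under 0.05, where 13.5% of all genes tested in that fit were, and 20 with a positive log2 fold change); 4 passed without shSamd14 replicate 1, 2 without control replicate 2, 3 without control replicate 3, and 5 without control replicate 1 or shSamd14 replicate 3. What part a shift in megakaryocytic cells or transcripts had in the values of Alox12 and Tbxas1 was not tested.

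Of 20 mast cell and basophil markers 11 were tested, and 1 rose and 0 fell in edgeR, where 1.32% of all genes tested rose. The marker that rose was the interleukin 33 receptor gene Il1rl1, from 142.7 ± 18.3 to 188.8 ± 10.9 CPM (SD, n = 3 each). In each of edgeR, DESeq2 and limma-voom, 4 of the 11 had an unadjusted p under 0.05, against 15% of all genes tested in edgeR. The median log2 fold change of the list was 0.05. Il1rl1 missed the threshold in 4 of 6 fits with a library left out, without control replicate 2 or 3 or shSamd14 replicate 2 or 3 (adjusted p up to 0.114). Hdc, the histamine-forming decarboxylase gene, had 213 and 231 CPM, the mast cell protease gene Cpa3 25.2 and 26 CPM, and Ms4a2, which encodes a subunit of the IgE receptor, 8.29 and 10.3 CPM in the group means. Cma1, Prss34 and Mcpt8, further protease genes of mast cells or basophils, were present too, whereas Mcpt4, Tpsab1 and Mrgprb2 were at 0 counts in all libraries and Fcer1a was below 1 CPM. The summed level of the list was 480.5 to 511.5 CPM in control and 533.7 to 633.9 CPM in shSamd14, without overlap. Its most abundant genes, Hdc and Il1rl1, weigh most in this sum. Of the 11 tested genes, 7 had a positive and 4 a negative log2 fold change. The part of these markers in the values of the mast or myeloid-type genes was not tested. Of 20 monocyte and macrophage markers 0 of 11 tested passed in edgeR, DESeq2 or limma-voom (1 at an unadjusted p under 0.05 in each), their sums overlapped (322 to 608 and 429 to 642 CPM), and C1qa, Timd4, Cd5l and Clec4f were at 0. Neutrophil markers were abundant, with Mpo at 1711 and 1862 CPM in the group means; 0 of 19 tested passed in any of the 3 tools (0 at an unadjusted p under 0.05), and their sums overlapped (3781 to 6118 and 4264 to 6280 CPM). Of 9 eosinophil markers 0 of 8 tested passed in any of them (2, 1 and 2 at an unadjusted p under 0.05), with sums of 67.9 to 94.3 and 53.7 to 88.9 CPM. Among 15 erythroid markers 2, Car1 and Hemgn, rose and 0 fell in edgeR, where 1.32% of all genes tested rose. Hemgn missed the threshold in 5 of 6 fits with a library left out, all but that without shSamd14 replicate 3. An unadjusted p under 0.05 was found for 5, 8 and 6 of the 15 in edgeR, DESeq2 and limma-voom. The share of all genes tested in edgeR was 15%. The erythroid markers had summed levels of 4139 to 4923 CPM in control and 5112 to 5593 CPM in shSamd14, which did not overlap. Their part in the enzyme values was not tested.

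The steps around the 7 enzymes were followed in 4 lists with 77 further genes, of which 50 were tested. Of these, 1 rose and 1 fell (2 of 50, where 2.58% of all genes tested were called). A positive log2 fold change was found for 35 of 50, against 6543 of the 12670 genes tested. The median over the 50 was 0.07, against 0.006 for all genes tested.

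Genes that free arachidonic acid from phospholipids or return it there gave no call: 0 of 13 tested passed in edgeR, DESeq2 or limma-voom, with 3, 2 and 3 at an unadjusted p under 0.05 (15% of all genes tested in edgeR), and their median log2 fold change was 0.008. Pla2g4a, the cytosolic phospholipase A2 gene that feeds both cyclooxygenases and lipoxygenases, had 79.0 ± 4.97 and 69.5 ± 5.19 CPM (SD, n = 3 each), or -0.18 on the log2 scale with an SE of 0.07 (edgeR adjusted p 0.228).

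Of 11 other prostanoid genes tested, 1 fell and 0 rose. Ptgr1, which encodes an enzyme that takes part in the inactivation of prostaglandins and leukotriene B4, had 56.6, 52.1 and 61.7 CPM in control. In the shSamd14 libraries it had 41.9, 44.4 and 46.6 CPM. The groups did not overlap, and Ptgr1 fell by 0.36 on the log2 scale (SE 0.07, adjusted p = 0.0188 in the edgeR test); it missed the threshold without control replicate 1 or 3 or shSamd14 replicate 1 or 2 (adjusted p up to 0.0963 and log2 fold changes from -0.42 to -0.30 over the 6 fits). Its 3′ UTR held CAAGTGT and AAGTGTA, and 22.7% of all searched genes held CAAGTGT or AAGTGTA. The 3′ UTRs of Hpgd, Ephx2 and Tbxa2r, described below, were looked up as well and held none of the searched words. Whether the words play a part in the fall of Ptgr1 was not tested. Hpgd, which encodes the main prostaglandin-degrading dehydrogenase, had 1.16, 1.66 and 1.58 CPM in control and 2.24, 2.39 and 2.45 CPM in shSamd14, without overlap, and did not pass (log2 fold change 0.68, SE 0.20, adjusted p = 0.109). Ptgs2, the inducible cyclooxygenase gene, stood at 0.863 ± 0.350 and 1.004 ± 0.263 CPM (SD, n = 3 each), far below Ptgs1, and Ptgds, the other prostaglandin D synthase gene, at group means of 0.0722 and 0.0822 CPM, below what 3 counts give, was not tested.

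The list of other lipoxygenase and leukotriene genes also held epoxide hydrolase genes. Of its 14 tested genes, 1, an epoxide hydrolase gene, rose and 0 fell. Ephx2, the soluble epoxide hydrolase gene, had 17.6, 16.9 and 17.7 CPM in the control and 24.7, 22.3 and 20.4 CPM in the shSamd14 libraries. The groups did not overlap, the log2 fold change was 0.37 (SE 0.09) and the adjusted p 0.0441 in the edgeR test; the threshold was passed without shSamd14 replicate 3 and missed without each of the other 5 libraries (adjusted p up to 0.207 and log2 fold changes from 0.28 to 0.43 over the 6 fits). Lta4h, whose product makes leukotriene B4 from the shared precursor that Ltc4s also uses, had 232.8 ± 29.2 and 256.0 ± 25.3 CPM (SD, n = 3 each; log2 fold change 0.14, SE 0.10, adjusted p = 0.565). In mean TPM over the 6 libraries, Lta4h stood at 199.8 and Ltc4s at 2.39.

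Among receptors and transporters 0 of 12 tested passed in edgeR, DESeq2 or limma-voom, with 1 at an unadjusted p under 0.05 in each. In edgeR that gene was Tbxa2r, the thromboxane receptor gene, with 4, 4 and 7 counts in the control and 19, 13 and 15 counts in the shSamd14 libraries. The groups did not overlap, and the log2 fold change was 1.46 (SE 0.39, adjusted p = 0.0653 in the edgeR test). Tbxa2r had 10 or more counts in the shSamd14 libraries alone, so it entered the test through the group in which it was high. Cysltr1, a receptor for the cysteinyl leukotrienes, had 1.74 ± 0.270 and 1.81 ± 0.569 CPM (SD, n = 3 each), and did not pass (edgeR adjusted p 0.939). Cysltr2, at group means of 0.0145 and 0.0543 CPM, was not tested.

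**Figure D4:**
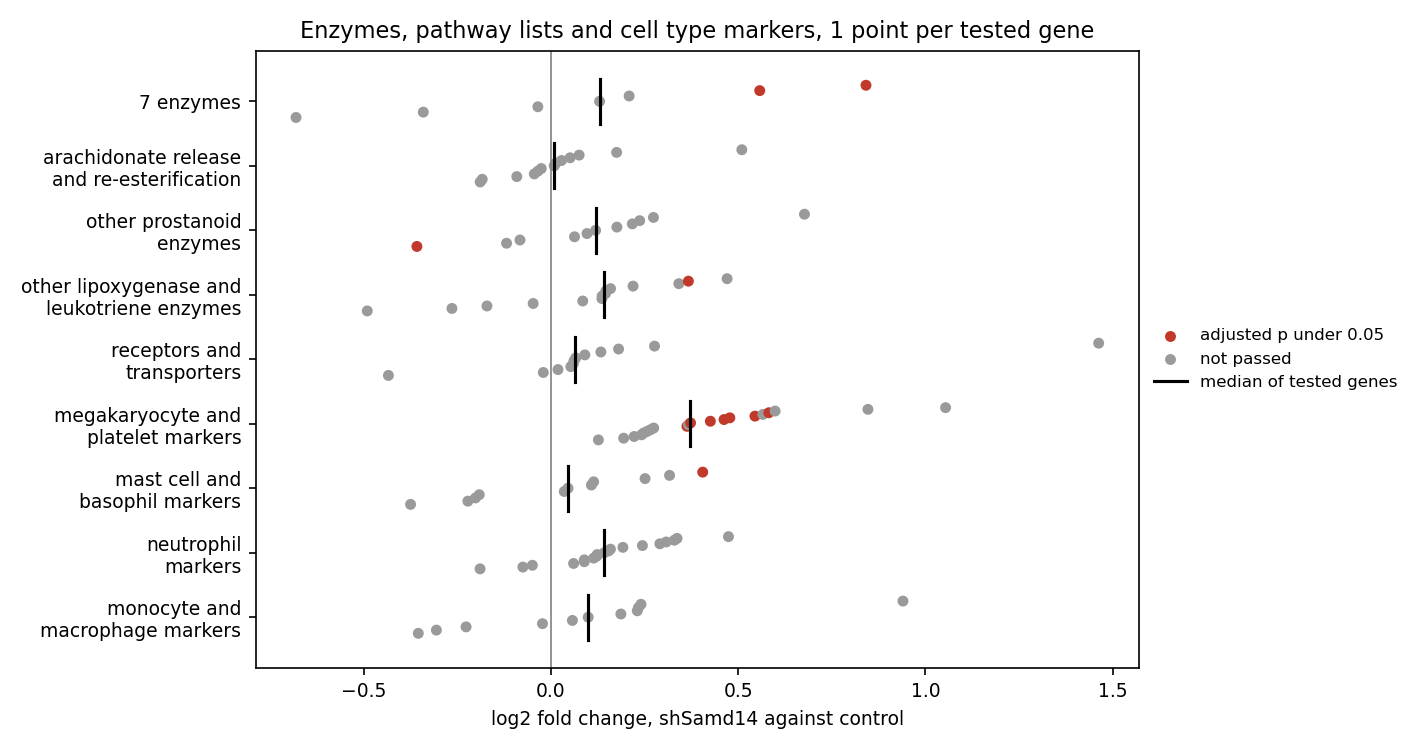
Log2 fold change of shSamd14 against control (x axis), 1 point per tested gene, for the 7 enzymes, the 4 pathway lists and 4 lists of cell type markers (y axis), with the median of each as a black bar; red points have an adjusted p under 0.05. The megakaryocyte and platelet markers all lie above 0 with a median of 0.37, while the medians of the pathway lists lie between 0.008 and 0.14 and the 7 enzymes are spread from -0.68 to 0.84.

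Genes whose pattern over the 6 libraries came closest to each enzyme were found by the root mean square difference in log2 CPM after centring each gene on its own mean, among 9499 genes with a mean of at least 5 CPM. Closest to Alox12 were Katnal1, Tmem135 and Clu, at differences of 0.0388, 0.0443 and 0.0603, and closest to Tbxas1 were Nck2, Elmod2 and Nedd4l, at 0.0683, 0.083 and 0.11. All 6 of these had an adjusted p under 0.05 and log2 fold changes of 0.53 to 0.78. Closest to Ptgs1 were Tnfrsf26, Sgpl1 and Aldh6a1 (0.0268 to 0.0319), to Alox5 Cyp4f13, Inf2 and Dennd2d (0.0428 to 0.0462), and to Alox5ap Plaur, Ccdc125 and Grn (0.0382 to 0.0441), none of which passed the test. Ltc4s and Hpgds, with few counts, had no neighbour as close: the nearest were Bmp1, Inpp4a and Zscan20 at 0.209 to 0.214, and Bnip3, Zfp943 and Acsl6 at 0.117 to 0.144. Among these, Zfp943 alone passed the test (adjusted p = 0.0459 in edgeR). All these genes were picked by their pattern over the same 6 libraries. Their fold changes and calls therefore follow those of the enzyme by construction and add no evidence for them. With 6 libraries that share a culture protocol and the 2 groups, such closeness is a description of these libraries.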

How the data were processed

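Polyadenylated RNA of 3 control and 3 shSamd14 samples was sequenced, from sorted cells lysed in Trizol according to the protocols in the labels. Tools listed in the submitters' processing notes, with no roles, are RSEM 1.2.15, CASAVA 1.8.2 and Bowtie 1.0.1, and the build is mm10; no annotation release, strand use or read length is stated there. The deposited gene tables hold, per the file headers, the authors' expected counts (RSEM estimates that split reads mapping to several genes), TPM values, and gene lengths in bases weighted by transcript.

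GENCODE M21 on GRCm38, the mm10 assembly, gave symbols, coordinates and 3′ UTRs; promoters came from RefSeq GRCm38.p6. Expected counts were rounded and tested with edgeR 4.0.16 (R 4.3.3): filterByExpr (minimum count 10, minimum total 15), TMM factors (0.986 to 1.02), robust dispersions, and the two-sided quasi-likelihood test with Benjamini-Hochberg adjustment over 12670 genes at a threshold of 0.05. The SE is the absolute log2 fold change over the square root of F. The fit was tested on simulated data. Every pair of libraries within a group differed beyond counting noise (chi-square 5.74 to 12.3 per gene), so each counted once. Alternatives were other size factors and filters, length offsets, a replicate block, DESeq2 1.42.0, limma-voom and limma on log2 TPM (limma 3.58.1), and leaving out each library.

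The genes, lists, words and motifs were chosen with earlier results of these data known. Named are the 7 enzymes and, in each pathway list, the genes past the threshold or the smallest p. Also named are the gene that defines a step, the most abundant markers, and the 3 closest patterns per enzyme. Hipk2, Gm26542, Pf4, Gp6, Cpa3, Ms4a2, Cma1, Prss34, Mcpt8, Fcer1a, Car1, Hemgn and the markers at 0 were named after their values were seen.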

Additional observations from a re-analysis of the deposited data

How the results depend on the processing

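Tbxas1 kept its direction and its call in all 16 alternatives. The number of genes called, 327, was 168 and 170 with limma on log2(TPM + 1) and log2(TPM + 0.1), 104 at an adjusted p under 0.01, and 128 to 283 with 1 library left out (128 without shSamd14 replicate 2, 153 without control replicate 1). Of the 7 enzymes, 2 were called in the main test, 1 (Tbxas1) in each limma fit on TPM and at an adjusted p under 0.01, and 1 to 2 with 1 library left out; Alox12 had log2 fold changes of 0.46 and 0.56 in the fits on TPM, where its adjusted p was 0.0722 and 0.0781, and of 0.47 to 0.61 with 1 library left out. The sign of Alox5ap turned without control replicate 3 (0.085), shSamd14 replicate 1 (0.016) and shSamd14 replicate 2 (0.02), with a range of -0.16 to 0.085 with 1 library left out. Of the 50 pathway genes, 2 were called in the main test, 1 with length offsets and with limma-voom, 0 in both limma fits on TPM (8 at an unadjusted p under 0.05 in each), 0 at an adjusted p under 0.01, and 0 to 2 with 1 library left out (6 to 14 at an unadjusted p under 0.05). The causes were not tested. With the replicate number as a block, 682 genes, the same 2 enzymes and 5 pathway genes were called. Deviations of same-numbered libraries correlated at -0.07, 0.15 and 0.27, and 2 of the 3 control libraries correlated best with another number. Such weak correlations over so few libraries cannot tell whether the numbers pair the libraries. Ltc4s and Hpgds were filtered out at 1 CPM in 3 libraries, Hpgds also in the fits on TPM, and DESeq2 gave neither an adjusted p. Leaving out libraries for the marker counts was added after seeing the data. Ltc4s and Hpgds had 12 to 30.0 counts per library, and how depth bears on their missing calls was not tested.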
